A study of Homo sapiens with 15 samples.

Results

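The kallikrein genes form a cluster of 15 neighbouring genes on chromosome 19, and 10 of them are described here in the prostate cancer cell line C4-2B. In chromosome order they are KLK1, KLK15, KLK3, KLK2, KLK4, KLK5, KLK6, KLK7, KLK10 and KLK11. They were chosen by name and position and not by a measured value, and they are 10 of the 58302 genes in the deposited count tables. The other 5 kallikrein genes, KLK8, KLK9, KLK12, KLK13 and KLK14, are given only as neighbours.

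RNA-seq of the study was labelled as 15 libraries in 5 groups of 3, and it addressed how prostate adenocarcinoma cells turn into neuroendocrine-like cells. The group used here is C4-2B, labelled as adenocarcinoma with a wild type genotype, grown in RPMI with fetal bovine serum and with no treatment named. C4-2B is 1 established line that descends from LNCaP, and it stands for castration-resistant adenocarcinoma. The DKD and ER groups, which received a scrambled control or an siRNA against Pax5, were not analysed here, so no condition was compared. The study's methods describe the RNA-seq as done in triplicate and its experiments as independent replicates, while the labels do not say whether the 3 C4-2B libraries came from separate cultures.

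Kallikreins are secreted serine proteases that are made as inactive precursors and cut other secreted proteins. KLK3, known as prostate-specific antigen (PSA), and KLK2 liquefy the seminal clot, and KLK2, KLK3 and KLK4 are known to respond to androgen in luminal prostate cells. Members at the other end of the cluster are best known from skin and other lining epithelia, where KLK5 and KLK7 loosen the outermost cell layer.

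To compare genes of different length, counts were scaled to TPM, a measure of relative abundance per length, which divides each count by the length of the gene's exons and sets all libraries to the same sum over genes. A gene was called expressed when each of the 3 libraries gave it 1 TPM or more. Total counts were 44992971, 49569026 and 46232076 in replicates 1, 2 and 3. As a check of the labelled cells, the luminal markers KRT8, KRT18, HOXB13 and ACP3 were expressed, at 197 ± 1.52, 254 ± 2.29, 241 ± 5.70 and 5.25 ± 0.292 TPM (SD, n = 3 each). None of 4 basal markers was expressed, TP63 had 0 counts and KRT5 had 1 count. KRT15 stood at 0.220 ± 0.0828 TPM and KRT14, just under the threshold, at 0.865 ± 0.118 TPM (SD, n = 3 each). The summed basal level lay between 1.01 and 1.13 TPM.

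Because KLK3 and KLK2 are the most abundant members, the stretch in front of their start sites is shown before the values. RefSeq (GRCh38.p14) gave promoter windows for 9 of the 10 members, and KLK1 was not among them. The 250 bases before the start of KLK3 are printed 5′ to 3′ on the plus strand (chr19:50854665-50854914), and capitals mark runs of at least 12 bases that occur unchanged in the window of KLK2.
KLK3: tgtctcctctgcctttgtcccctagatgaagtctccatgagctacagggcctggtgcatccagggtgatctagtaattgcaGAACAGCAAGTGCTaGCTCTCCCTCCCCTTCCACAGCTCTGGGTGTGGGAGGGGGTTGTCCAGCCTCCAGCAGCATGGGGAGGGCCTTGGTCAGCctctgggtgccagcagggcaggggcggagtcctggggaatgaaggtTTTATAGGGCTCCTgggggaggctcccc
These shared runs covered 108 of the 250 bases, or 43.2%, and the longest was 80 bases. Among all other pairs of members with a window, the longest shared run was between 7 and 12 bases.

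A known androgen response element of the KLK3 promoter lies inside this window, and its counterpart was found in the window of KLK2. The pair is shown with flanks on the plus strand, 30 bases each, at chr19:50854737-50854766 for KLK3 and chr19:50873255-50873284 for KLK2, with the 15-base element in capitals.
KLK3: gtaattgcAGAACAGCAAGTGCTagctctc
KLK2: gtatgtgtGGAACAGCAAGTGCTggctctc
Counted from 1 at the 5′ end of the element, KLK2 differed from KLK3 by A1G, and the element began 170 bases before the start of KLK3 and 176 bases before that of KLK2. The half-site AGAACA, searched on both strands, was present in the window of KLK3 and in no other member's window nearest to the gene start, and 12.4% of 35116 RefSeq promoter windows of the same length held it. The letters TATAAA, on either strand, were in the windows of KLK15, KLK3 and KLK2 and in 10.7% of all windows. Such matches describe letters and not binding, and a window without them says nothing about the factor.

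To understand how far expression reaches along the cluster, the level of each member was followed in chromosome order. KLK1, KLK15, KLK3, KLK2 and KLK4 were expressed, and KLK5, KLK6, KLK7, KLK10 and KLK11 were not, so that 5 of 10 members passed and stood side by side in the order. At the same threshold 32.8% of all genes and 61.2% of protein-coding genes passed, so the share among the members was not above that among protein-coding genes. The 10 members together reached 2495 ± 21.6 TPM (SD, n = 3) and took 0.374% ± 0.00143 of all counts (SD, n = 3). In bulk RNA a low level in many cells and a high level in few cells cannot be told apart.

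**Figure D1:**
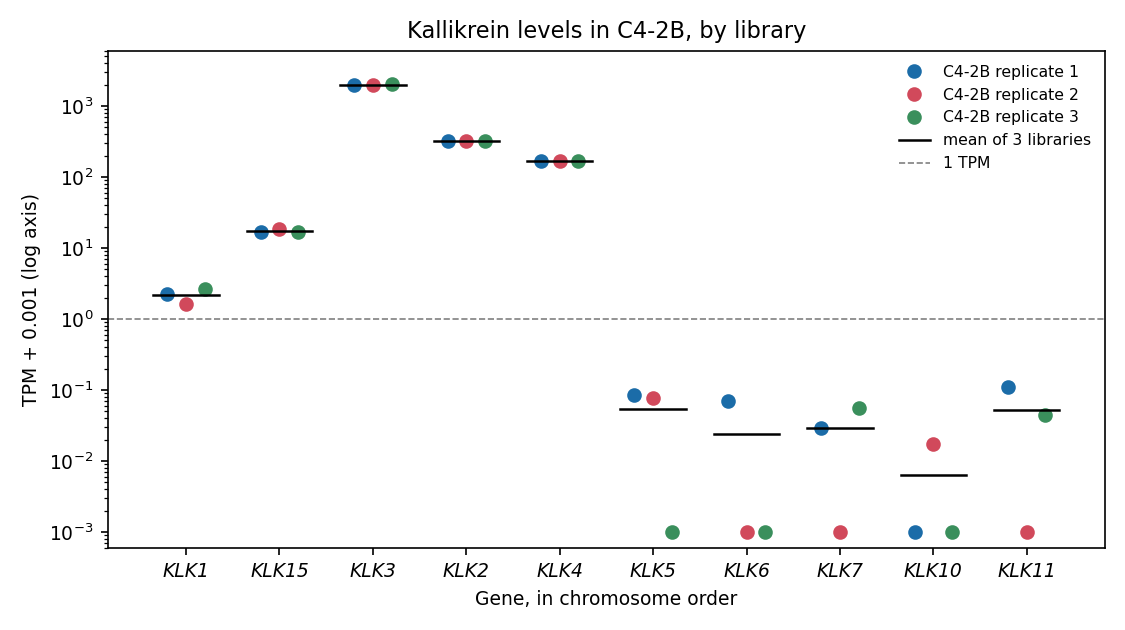
Level of each of the 10 kallikrein genes in the 3 C4-2B libraries, in chromosome order, as TPM + 0.001 on a log axis. Points are libraries, black bars are means of the 3 libraries and the dashed line is 1 TPM. KLK3 stands highest at 1988 TPM, and the genes from KLK5 on lie at means of 0.0532 TPM or less, with 7 of their 15 values at 0 counts.

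KLK1, tissue kallikrein, releases the kinin peptide from kininogen and is the member at the near end of the cluster (ENSG00000167748, chr19:50819148-50823787, minus strand). Its counts were 77, 61 and 94 in replicates 1, 2 and 3, or 2.23, 1.61 and 2.68 TPM. The mean was 2.17 ± 0.535 TPM (SD, n = 3), the lowest of the 5 expressed members. The coefficient of variation between libraries was 24.6%, against 0.468% to 4.38% for the other 4 expressed members. KLK1 also had the fewest counts of the 5, the next being KLK15 with 1803 in all. Counting noise raises this coefficient at low counts, and its part in the spread of KLK1 was not measured. The chi-square test described below, which sets libraries against counting noise, gave KLK1 an adjusted p of 0.0498. With the chi-square divided by 2 it was 0.538. With 232 counts in all, the exact Poisson interval at 95% ran from 1.89 to 2.46 TPM. It is too narrow, since the mates of a read pair were counted separately. The values of replicates 2 and 3 lay outside it.

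KLK15, a trypsin-like protease that can activate the precursor of PSA, lies 1501 bases further on (ENSG00000174562, chr19:50825289-50837213, minus strand). It reached 17.1, 18.3 and 16.9 TPM from 567, 666 and 570 counts, a mean of 17.4 ± 0.762 TPM (SD, n = 3). All 3 values lay above the highest value of KLK1, and the ratio of KLK15 to KLK1 was 8.43 ± 2.61 (SD, n = 3). KLK15 ranked 6950 and KLK1 ranked 11326 by mean level among 19708 protein-coding genes.

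KLK3 follows after a gap of 17701 bases and is transcribed from the other strand (ENSG00000142515, chr19:50854915-50860764, plus strand). Its counts of 132376, 146523 and 137761 gave 1968, 1984 and 2010 TPM. At a mean of 1988 ± 21.1 TPM (SD, n = 3), PSA was 114 ± 5.40 times its neighbour KLK15 (SD, n = 3). It ranked 25 among the protein-coding genes, and it alone made up 79.7% ± 0.159 of the members' summed TPM (SD, n = 3).

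KLK2, the trypsin-like protease that activates PSA from its precursor, stands next to it on the same strand (ENSG00000167751, chr19:50861568-50880567, plus strand). It was measured at 321.4, 321.9 and 319.1 TPM from 29790, 32769 and 30141 counts, a mean of 321 ± 1.503 TPM (SD, n = 3). All 3 libraries lay far below those of KLK3, and the ratio of KLK3 to KLK2 was 6.20 ± 0.0920 (SD, n = 3). The deposited annotation starts KLK2 803 bases after the end of KLK3, while the RefSeq start used for its promoter window is at 50873439. Counts of KLK2 therefore include any reads over annotated exons between the end of KLK3 and that start, and their share was not measured.

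KLK4, known from enamel formation and also made by the prostate, is the last expressed member (ENSG00000167749, chr19:50906352-50910738, minus strand). It reached 165.4, 165.8 and 168.7 TPM from 4640, 5106 and 4821 counts, a mean of 167 ± 1.78 TPM (SD, n = 3). KLK2 was 1.93 ± 0.0292 times as high (SD, n = 3). KLK4 ranked 667 among protein-coding genes, in the 96.6th percentile. Of the 75-base stretches within its exons, 114 of 1578 had an exact second copy inside KLK4 itself. Reads aligned to several places were not counted, and the effect of these copies on the level of KLK4 was not tested.

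KLK3 and KLK2 together held 92.5% ± 0.0135 of the members' summed TPM (SD, n = 3). The remaining 7.46% ± 0.0122 (SD, n = 3) belonged almost wholly to KLK4, KLK15 and KLK1, which summed to 186 ± 1.79 TPM (SD, n = 3). KLK4 took 6.68% ± 0.0238, KLK15 0.698% ± 0.0326 and KLK1 0.0871% ± 0.0210 of the members' TPM (SD, n = 3 each). The prostate-specific pair was thus flanked on both sides by expressed kallikreins, and KLK3 was 11.9 ± 0.0360 times as high as KLK4 (SD, n = 3).

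**Figure D2:**
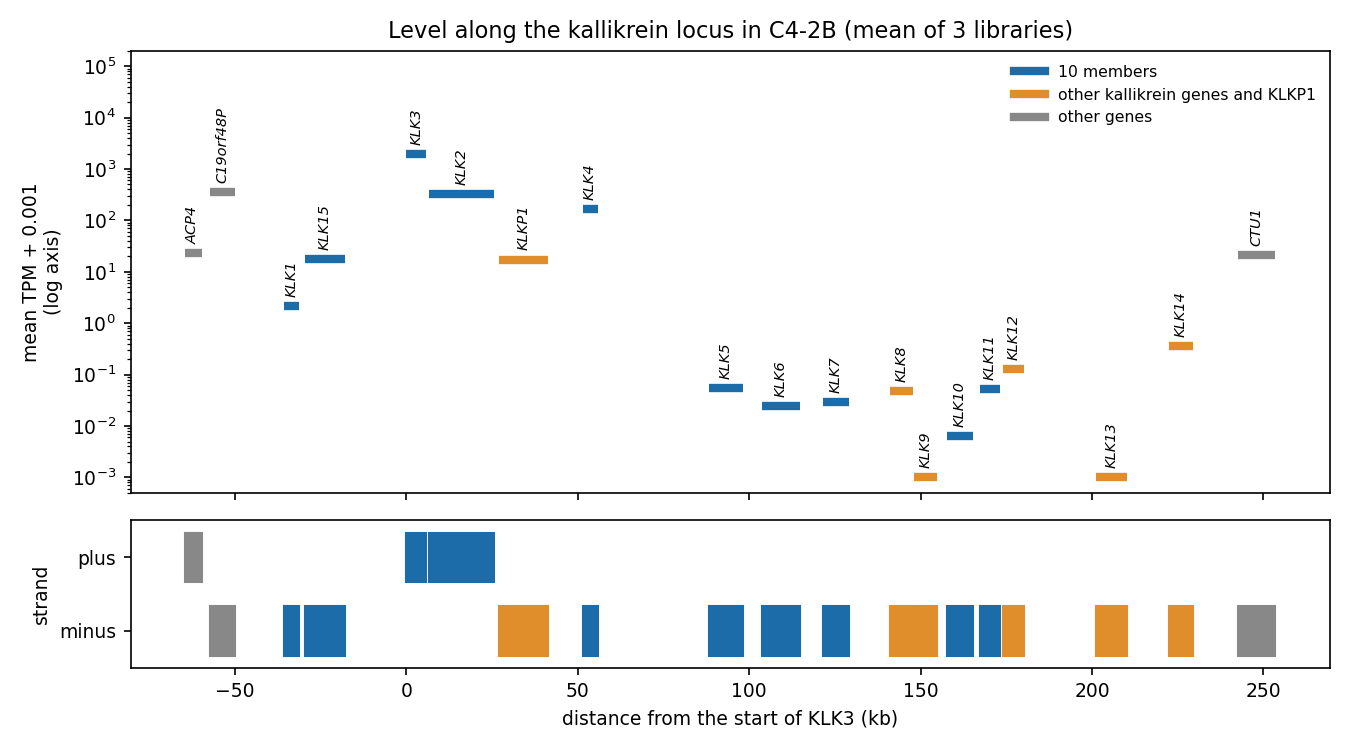
Mean level (TPM + 0.001, log axis, 3 C4-2B libraries) of genes along the kallikrein cluster, each drawn as a horizontal line over its span, with the strand of each gene in the lower panel and distance from the start of KLK3 in kb on the horizontal axis. Blue marks the 10 members, orange the other kallikrein genes and the pseudogene KLKP1, and grey ACP4, C19orf48P and CTU1. Other genes of the region are left out. Levels drop from 167 TPM at KLK4 to 0.0532 TPM at KLK5 and return to 21.5 TPM at CTU1.

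To see whether the genes around the expressed members were also active, the other genes of the region were read. The pseudogene KLKP1 lies between KLK2 and KLK4 (chr19:50882096-50896398, minus strand) and was expressed at 18.0, 16.3 and 17.7 TPM, a mean of 17.3 ± 0.950 (SD, n = 3). KLK2 was 18.5 ± 1.096 times as high as KLKP1, and KLK4 was 9.62 ± 0.521 times as high (SD, n = 3 each). By all exon bases, KLKP1 was therefore close in level to KLK15, at 17.4 TPM, and their library values overlapped. KLKP1 has no protein-coding transcript, so the 2 were not compared by transcript length, and the closeness holds for the exon length only. The long non-coding gene ENSG00000267968 (chr19:50830530-50851089, plus strand) overlaps part of the span of KLK15 and reaches beyond it towards KLK3. It shares no exon bases with KLK15 and was expressed at 7.51 ± 0.225 TPM (SD, n = 3). Counting took no account of strand, so this level can include reads of unspliced KLK15 RNA, and their share was not measured.

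Upstream of KLK1, C19orf48P (chr19:50797704-50804929, minus strand) was expressed at 360 ± 4.86 TPM (SD, n = 3). When all exon bases were the length, it lay above KLK2 in each library. That order depends on the length. KLK2 stood at 535 ± 2.31 TPM (SD, n = 3) when the same counts were divided by its longest transcript. As a pseudogene, C19orf48P has no protein-coding transcript and would keep its 3256 bases. It shared 182 exon bases (5.59%) with other genes. It ends 14218 bases before KLK1, and it was 173 ± 46.1 times as high as KLK1 (SD, n = 3), the gene next to it among the members. Within 50 kb of the cluster on that side, ACP4 stood at 23.4 ± 0.850, SMIM47 at 6.87 ± 0.958, SNORD88A at 76.6 ± 1.21 and the non-coding gene ENSG00000268375 at 17.3 ± 1.97 TPM (SD, n = 3 each). SNORD88A, of 91 bases, lies within the span of C19orf48P, and ENSG00000268375, of 260 bases, within that of ACP4. Reads of unspliced RNA from those genes over them would count for them, and their share was not measured. SNORD88B and SNORD88C had 0 counts, and with 100% of their bases under another gene they could have none of their own. The pseudogene TMEM277P, next to KLK1, had 0.773 ± 0.211 TPM (SD, n = 3) and was not expressed. KLK1 thus stood lower than the expressed genes on both of its sides, and the 3 values of KLK1 lay below those of each of them.

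KLK5, a trypsin-like protease of the outer skin layer (ENSG00000167754, chr19:50943303-50953093, minus strand), begins 32564 bases after KLK4. It had 2, 2 and 0 counts in replicates 1, 2 and 3, a mean of 0.0532 ± 0.0462 TPM (SD, n = 3). From summed counts, KLK4 was 3111 times as high as KLK5, with a counting interval at 95% from 1215 to 11419.5. The same interval for the step between KLK3 and KLK2 was 6.15 to 6.24. Both intervals cover counting error only and are too narrow, since mates were counted separately. For KLK3 and KLK2 the ratios in single libraries ran wider, from 6.12 to 6.30.

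KLK6, a trypsin-like protease abundant in the nervous system (ENSG00000167755, chr19:50958631-50969673, minus strand), had 2, 0 and 0 counts. KLK7, the chymotrypsin-like partner of KLK5 in skin (ENSG00000169035, chr19:50976482-50984099, minus strand), had 1, 0 and 2. KLK10, first described in normal breast epithelium (ENSG00000129451, chr19:51012739-51020175, minus strand), had 0, 1 and 0. KLK11, a trypsin-like protease known from brain, skin and prostate (ENSG00000167757, chr19:51022216-51028039, minus strand), had 5, 0 and 2 counts, the most of these 5 genes. Each of these 5 members had 0 counts in at least 1 library.

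Together the 5 members beyond KLK4 had 10, 3 and 4 counts, 17 in all, with an exact Poisson interval at 95% from 9.90 to 27.2. The upper ends of the pooled intervals were 0.137 TPM for KLK5, 0.0809 for KLK6, 0.0797 for KLK7, 0.0320 for KLK10 and 0.103 for KLK11. In single libraries the values reached 0.111 TPM, for KLK11 in replicate 1. The mates of a read pair were counted separately, so 2 counts can come from a single fragment and these intervals are too narrow.

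**Figure D3:**
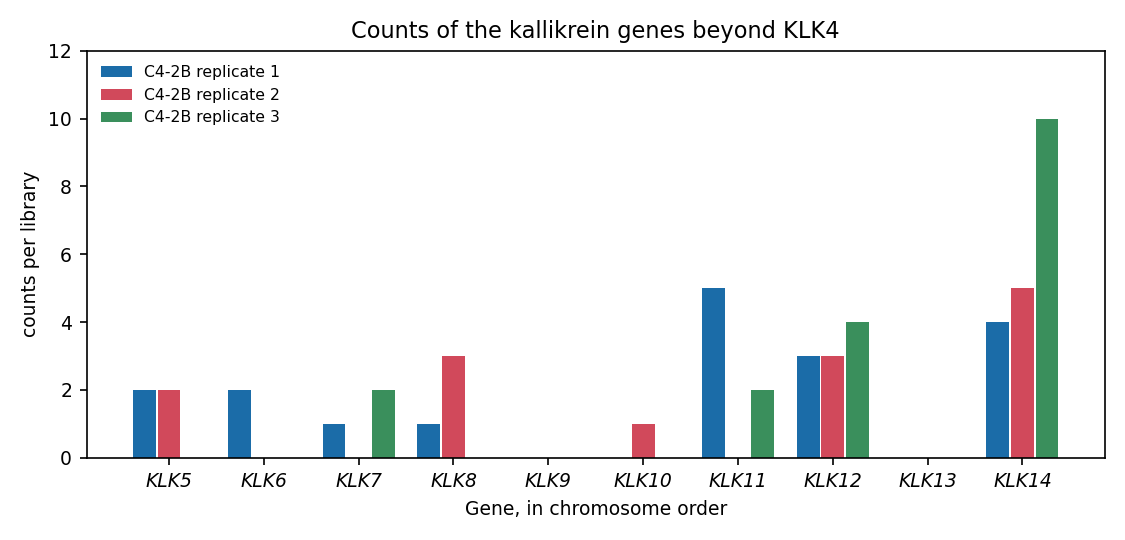
Raw counts per library of the 10 kallikrein genes from KLK5 to KLK14 in chromosome order, with 1 bar per C4-2B library and the axis starting at 0. KLK9 and KLK13 have no bar because they had 0 counts in all 3 libraries, and the tallest bar is KLK14 in replicate 3 with 10 counts.

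The other kallikreins on this side of KLK4 were low as well. KLK8 had 1, 3 and 0 counts, KLK12 had 3, 3 and 4, and KLK14 had 4, 5 and 10. KLK13 had 0 counts in all 3 libraries, which allows a level of up to 0.0331 TPM, the level that 3 counts over the 3 libraries would give. Because mates were counted separately, this limit is too low. KLK9 also had 0 counts, but 93.7% of its exon bases lie under another gene and could give none, so no limit is set for it. The 10 kallikreins from KLK5 to KLK14 summed to 18, 14 and 18 counts, or 50 in all against 14567 for KLK4 alone.

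The stretch from the end of KLK4 to the start of CTU1 spanned 186867 bases and held 18 annotated genes, 11 of them protein-coding. No gene in it was expressed, 8 had 0 counts in all 3 libraries, and its genes had 53 counts in all. Only reads over exons of a single gene were counted, so introns and the bases between genes were not measured. Among the 8, ENSG00000268739, KLK9 and ENSG00000269495 had 100%, 93.7% and 62.9% of their exon bases under other genes, where reads were not counted. The highest mean was 0.364 ± 0.191 TPM (SD, n = 3), for KLK14. CTU1, a tRNA-modifying enzyme gene named after its value was seen (chr19:51097606-51108370, minus strand), came next at 21.5 ± 1.27 TPM (SD, n = 3). From summed counts CTU1 was 59.2 times as high as KLK14. The counting interval at 95% was 37.8 to 98.6, which is too narrow since mates were counted separately.

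Ordered by level, the members read KLK3, KLK2, KLK4, KLK15, KLK1, KLK5, KLK11, KLK7, KLK6 and KLK10. For the first 5 steps in this order, down to KLK5, the lowest library of the upper gene lay above the highest library of the lower gene. For the other 4 steps, all among the members beyond KLK4, the library values overlapped and no order can be read. From summed counts, KLK1 was 43.4 times as high as KLK11, with a counting interval at 95% from 20.7 to 109. That interval is too narrow, since mates were counted separately. The median of the 10 members was 1.11 TPM, beside 5.88 TPM for all protein-coding genes and 0.171 TPM for all genes.

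Because the level of a gene depends on the length it is divided by, levels were also computed with the longest annotated protein-coding transcript in place of all exon bases. For KLK3 the deposited length was 4639 bases in 3 exon blocks, which filled 79.3% of its span, and its longest such transcript was 1664 bases. For KLK1 the lengths were 2378 and 876 bases, and for KLK2 they were 6394 and 2847 bases. KLK3 then reached 4111 ± 46.3 TPM, KLK2 535 ± 2.31, KLK4 169 ± 1.90, KLK15 15.9 ± 0.698 and KLK1 4.38 ± 1.08 TPM (SD, n = 3 each). The ratio of KLK3 to KLK4 moved from 11.9 to 24.3, that of KLK2 to KLK4 from 1.93 to 3.16, and that of KLK15 to KLK1 from 8.43 to 3.82. The order of the 5 expressed members stayed as it was, while the size of the steps between them followed the length used.

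**Figure D4:**
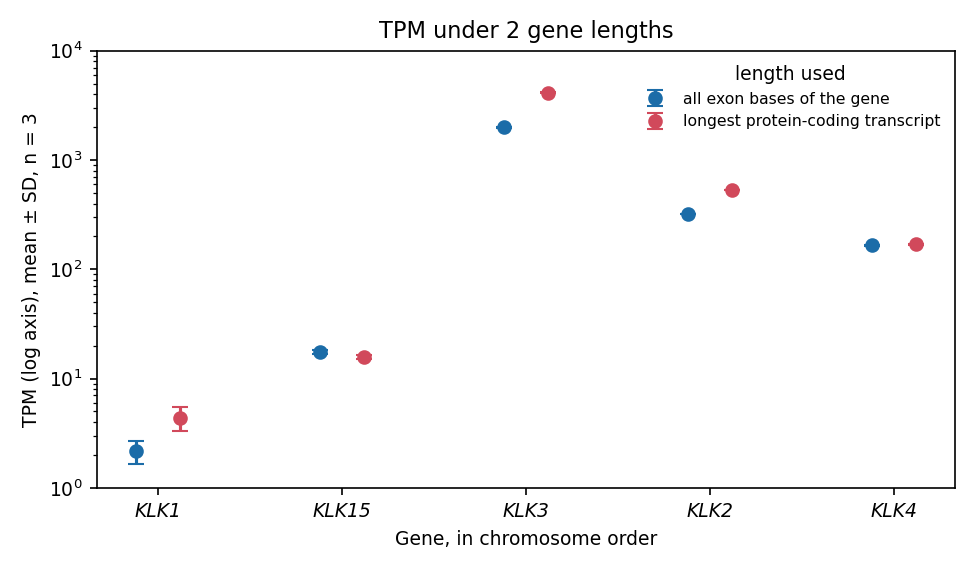
Level of the 5 expressed kallikreins under 2 gene lengths, as mean TPM with SD over 3 C4-2B libraries on a log axis. Blue divides the counts by all exon bases, and red divides the same counts by the longest protein-coding transcript. KLK3 moves from 1988 to 4111 TPM and KLK1 from 2.17 to 4.38 TPM, while KLK4 stays near 167 to 169 TPM.

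Exon overlap matters here because a read that touched exons of several genes was left out of every gene's count. None of the 5 expressed members shared an exon base with another gene. Of the 5 others, KLK5 shared 202 bases (12.2% of its exon bases) and KLK6 shared 401 bases (20.3%) with the opposite-strand non-coding gene ENSG00000269495. KLK10 shared 240 bases (6.23%) with the opposite-strand gene ENSG00000268739, and both partners had 0 counts in all 3 libraries, ENSG00000268739 with 100% and ENSG00000269495 with 62.9% of its bases under other genes. Thus 3 of 10 members overlapped another gene, beside 42.8% of protein-coding genes and 27.9% of all genes.

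Among the neighbours overlap was larger. KLK9 shared 93.7% and KLK8 shared 40.1% of its exon bases with ENSG00000269741, a gene on the same strand that had 1 count in all, and KLK12 shared 9.04% with the opposite-strand gene ENSG00000268906, which had 2 counts. The 0 counts of KLK9 therefore rest on the few exon bases left to it. Counting took no account of strand, so a read from the opposite strand over exons annotated for a single gene was counted for that gene. Dividing by exon bases outside overlaps gave 0.0577 TPM for KLK5, 0.0278 for KLK6 and 0.00552 for KLK10, all far below 1 TPM.

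KLK3 and KLK2 are close relatives in sequence, so exact copies between them were counted. Of 4492 stretches of 50 bases within KLK3 exons, 11 (0.245%) occurred unchanged in KLK2, and of the stretches of 75 bases none had a second exact copy on chromosome 19. For KLK2, 6 of 5876 stretches of 75 bases (0.102%) had a second copy on the chromosome. The read length is not given in the sources used here, and copies outside chromosome 19 were not searched.

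To ask how steady the members were between libraries, the 3 counts of each gene were compared with library sizes scaled by TMM in a chi-square test over all genes with at least 30 counts, a test of libraries and not of conditions. Of 22229 genes tested, 3835 (17.3%) differed at a Benjamini-Hochberg adjusted p under 0.05. The test sets the libraries against counting noise alone, and reads copied by PCR were not marked, so its p-values are too small. Of the 5 members with enough counts, KLK1 was just under the threshold, at an adjusted p of 0.0498, and was over it with DESeq2 size factors and with a minimum of 10 counts or 1 count. KLK1 was highest in replicate 3 and lowest in replicate 2. KLK3 followed with an adjusted p of 0.0519, its TPM values spanning 1968 to 2010, and KLK2, KLK15 and KLK4 had adjusted p-values of 0.223, 0.469 and 0.881. Dividing each chi-square by 2, since mates were counted separately, left 0 of the 5 members, with an adjusted p of 0.538 for KLK1, and 0.792% of all genes. Before adjustment, KLK1 and KLK3 were under 0.05 in the undivided test.

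To place the cluster in its pathway, genes that act on kallikreins or are cut by them were read from lists. Of the androgen axis, the pioneer factor FOXA1 was expressed at 330 ± 3.85, the homeobox factor HOXB13 at 241 ± 5.70 and TMPRSS2, an androgen-induced membrane protease, at 201 ± 1.52 TPM (SD, n = 3 each). With all exon bases as length, FOXA1 and KLK2 were close in level, FOXA1 lying above KLK2 in each library. On that length TMPRSS2 lay above KLK4 in each library. The order of FOXA1 and KLK2 depends on the length used. All exon bases and the longest transcript were 3982 and 3509 bases for FOXA1 but 6394 and 2847 for KLK2. KLK2 stood at 535 ± 2.31 TPM (SD, n = 3) when the same counts were divided by the transcript length.

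Of 10 inhibitors, 3 were expressed, beside 61.2% of protein-coding genes at the same threshold. SPINT1 and SPINT2, Kunitz-type inhibitors of serine proteases at the cell surface, stood at 148 ± 2.48 and 103 ± 3.35 TPM, and SERPINB6, an intracellular serpin, at 70.6 ± 2.56 TPM (SD, n = 3 each). SERPINA3, the antichymotrypsin that binds PSA in blood, had 4, 4 and 1 counts, or 0.0396 ± 0.0227 TPM (SD, n = 3), with 31.8% of its exon bases under other genes. SERPINA5, the protein C inhibitor of seminal plasma, had 0, 6 and 4 counts, and SPINK5, the inhibitor of the skin kallikreins, had 20, 6 and 10. A2M, SERPINC1, SPINK6 and SPINK9 likewise stayed under 1 TPM, at means between 0.0594 and 0.141 TPM. The expressed inhibitors thus did not include the secreted inhibitors best known for PSA or for the skin kallikreins.

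Of 12 substrates, 4 were expressed, again beside 61.2% of protein-coding genes. FN1, the matrix protein fibronectin, stood at 435 ± 5.43 TPM, F2RL1, a receptor that trypsin-like proteases switch on by cutting it, at 49.4 ± 2.29, IGFBP3, a carrier of insulin-like growth factors, at 8.83 ± 0.823 and the desmosomal cadherin DSC1 at 2.93 ± 0.149 TPM (SD, n = 3 each). The semenogelins SEMG1 and SEMG2, the clot proteins cut by PSA, had 2, 2 and 2 counts and 4, 4 and 2 counts. PLAUR, the urokinase receptor, and DSG1, a skin desmosomal cadherin, stood at 0.811 ± 0.0672 and 0.867 ± 0.107 TPM (SD, n = 3 each), just under the threshold. PLAU, ENAM and CDSN had 1, 4 and 2 counts in all. Of these, PLAU and CDSN lie under other genes over 31.1% and 93.8% of their exon bases and lost the reads there. The enamel protein AMBN had 0 counts, which allows up to 0.0330 TPM, a limit that is too low since mates were counted separately.

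Markers of other cell types were read beside the low members, since several of those are known from squamous epithelium. Of 6 squamous markers only KRT10 was expressed, at 30.1 ± 0.891 TPM (SD, n = 3), while SPRR1B had 0 counts and IVL, FLG, KRT1 and CDSN had means of 0.106, 0.0496, 0.0538 and 0.0172 TPM. CDSN says little here, since 93.8% of its exon bases lie under other genes, where reads were not counted. The summed squamous level lay between 29.5 and 30.8 TPM in the 3 libraries. Of 4 neuroendocrine markers, CHGA at 1.38 ± 0.243 and SYP at 1.31 ± 0.0773 TPM (SD, n = 3 each) were expressed, with a summed level between 2.66 and 3.18 TPM. Of 4 fibroblast markers only COL1A1 was expressed, at 7.09 ± 0.581 TPM (SD, n = 3), COL1A2 and DCN had 0 counts, and the sum lay between 7.002 and 8.23 TPM. Of 4 leukocyte markers only LYZ was expressed, at 2.08 ± 0.544 TPM (SD, n = 3), PTPRC had 2 counts, and the sum lay between 1.76 and 2.698 TPM. The part of RNA from such cells in the low kallikrein counts was not tested.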

How the data were processed

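RNA was measured by sequencing of ribosomal RNA-depleted, strand-specific, paired-end libraries of C4-2B. The authors trimmed reads with Trim Galore, aligned them with STAR 2.7.0f to GRCh38 (hg38) and deposited raw counts, made with featureCounts 1.6.3 for the genes of Ensembl release 90, per the file headers and the submitters' processing notes. The recorded command set no strand and no counting of pairs as fragments. Gene length in the deposited tables, another value in the authors' files, equalled the union of exons for all 58302 genes.

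TPM was computed from counts and that length over all genes. Symbols were matched for 57532 genes, and types came from GENCODE release 44, which gave 19708 protein-coding genes. Groups and replicate numbers came from the sample titles. The 3 counts of a gene were tested against library sizes scaled by edgeR 4.0.16 (TMM) in a chi-square test with 2 degrees of freedom, for genes with at least 30 counts, with Benjamini-Hochberg adjustment over all genes tested. DESeq2 1.42.0 size factors were an alternative. Scripts ran in Python 3.11.15 with scipy 1.17.1 and R 4.3.3, and the test was tested on simulated data. Intervals are exact Poisson or, for ratios, exact conditional binomial at 95%, and they, the limit of 3 counts and the chi-square test cover counting error only, since copies made by PCR were not marked. Mates were also counted separately, which makes all intervals too narrow and the limit of 3 counts too low.

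Genes named are the members, the expressed genes, kallikreins and exon-sharing genes of the region within 50 kb, and lists of the androgen axis, inhibitors, substrates and cell type markers. Plasma kallikrein is given in the closing section. The members and lists were chosen with earlier results of these data known. Some genes of the androgen and luminal lists are not reported here and were taken out once the data had been seen. Exon overlap, distances and repeated stretches came from the deposited coordinates, counted from 1, and the GRCh38 sequence. Promoter windows are from RefSeq. Alternatives changed the length, the scaling, the threshold, the count minimum and the libraries used. An exon base was called repeated only on an exact match on chromosome 19.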

Additional observations from a re-analysis of the deposited data

How the results depend on the processing

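The count of expressed members was 5 with every alternative length, denominator, a CPM of at least 1, a TPM of at least 0.5 and each library left out, and 4 at a TPM of at least 5, where KLK1 fell out. The share of KLK2 and KLK3 was 96.8% of summed counts, 96.1% with the longest transcripts and 92.51% over all 15 kallikreins, an alternative chosen after the data were seen, and 92.5% with each library left out in turn. Of 9 neighbouring pairs in the order, 8 kept their order by CPM and with either other length, and 7 to 8 with a library left out. Each pair that changed was among KLK5, KLK6, KLK7, KLK10 and KLK11. The number of members that differed between libraries was 1, and 0 with DESeq2 size factors, with a minimum of 10 counts or 1 count and with the chi-square divided by 2. It was 2 (KLK1 and KLK3) with plain library totals, and 0 to 1 with a library left out: KLK1 without replicate 1, KLK3 without replicate 2 and none without replicate 3. Among all genes 3835 differed, against 176 with the chi-square divided by 2, 118 when that was done with no minimum beyond 1 count (chosen after the data were seen), and 1383 to 2324 with a library left out, 1383 without replicate 1, 2324 without replicate 2 and 1738 without replicate 3, each comparing 2 libraries. Levels of all 5 expressed members moved by more than 1 SD with another denominator or the longest transcripts. KLK3, for example, was 2876 TPM when the 10 most abundant and the mitochondrial genes were left out of the denominator. No paired analysis was possible because a single group was analysed. Depth limits the 5 members beyond KLK4, whose 17 counts give no order among them.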

Other observations

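KLKB1, which encodes plasma kallikrein, lies on chromosome 4 and shares the name but not the cluster. It had 14, 13 and 28 counts in the 3 C4-2B libraries and a mean of 0.415 ± 0.198 TPM (SD, n = 3), so it was not expressed by the threshold of 1 TPM, and its mean lay between those of KLK1 and KLK14.

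The change of level from KLK4 to KLK5 was set beside those of all other neighbouring protein-coding genes. On the scale of log2(TPM + 0.1), which understates differences among low genes, KLK4 exceeded KLK5 by 10.09. Among 19683 pairs of neighbouring protein-coding genes the median difference was 2.51, and 238 pairs (1.21%) differed by at least as much as KLK4 and KLK5. KLK3 exceeded KLK15 by 6.83, and 14.6% of the pairs differed by at least that. The run of protein-coding genes under 1 TPM from KLK5 to KLK14 held 11 genes, and 43 of 3433 such runs in the genome (1.25%) were at least as long. The step and the run were picked after their levels had been seen in these same libraries. The shares of pairs and runs therefore do not measure how unusual they are. These values describe the annotation order and these libraries, and neighbouring genes are not independent.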
